A study of Mus musculus with 12 samples.

Results

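Undifferentiated spermatogonia (Aundiff) from mice with a germ-cell deletion in Polycomb Repressive Complex 1 (PRC1) were compared with those of littermate controls at 2 months of age, without drug treatment. The 4 libraries of this comparison, 2 labelled PRC1ctrl and 2 labelled PRC1cKO, were chosen by their genotype, cell type and treatment labels from the 12 libraries of the series. PRC1cKO mice were Ring1-/-; Rnf2 F/-; Ddx4-Cre, and PRC1ctrl mice were Ring1-/-; Rnf2 F/+; Ddx4-Cre, so controls and mutants both lacked Ring1 and carried the Cre, and the controls kept 1 Rnf2 allele that Cre cannot delete. Ddx4-Cre acts in germ cells, and the mice had the mixed C57BL/6 X FVB/NJ background. Cells were sorted for E-Cadherin and high CD9 and against KIT, about 7000 of them were pooled for each library, and libraries were made with a low-input Smart-Seq2 kit that does not mark strand. The other 8 libraries were wild-type Aundiff and differentiating spermatogonia (Adiff), C57BL/6, and Aundiff of PRC1ctrl and PRC1cKO mice given Win18446, an inhibitor of retinoic acid synthesis. Those 8 were stranded libraries from larger pools.

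PRC1 places a single ubiquitin on histone H2A, and RNF2 and RING1 are the interchangeable catalytic subunits that do so. In many cell types it keeps developmental regulators silent, and in early embryonic cells a variant complex with PCGF6 holds germline genes off. Undifferentiated spermatogonia include the stem cells of the testis. They divide, respond to retinoic acid, become KIT-positive, enter meiosis and, long after the sort used here, form haploid spermatids that pack their DNA with transition proteins and protamines.

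Values are TPM, each gene's share of the transcripts of a library after correction for transcript length, so the number of reads behind a value is unknown. In the 4 libraries 12422 to 13986 genes reached 1 TPM, and 12.5 to 16.7% of the TPM came from mitochondrial genes, against 4.28 to 6.69% in the 8 stranded libraries. On log2(TPM + 1), replicates correlated with r = 0.941 (PRC1ctrl) and 0.954 (PRC1cKO) across genes, and libraries of different labels with r = 0.857 to 0.907. Genes are not independent replicates, so these are descriptions. Differences below are PRC1cKO minus PRC1ctrl on log2(TPM + 1), called log2 fold changes. That scale understates the change of genes near 0. Over the 13953 genes with at least 1 TPM in at least 2 of the 4 libraries, out of 55385 in the table, the median log2 fold change was 0.22, and list medians below are to be read against it.

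The deleted genes were examined first. Ring1 stood at 0.07 and 0.11 TPM in the PRC1ctrl libraries and at 0.12 and 0.10 TPM in the PRC1cKO libraries, while wild-type libraries held 8.61 to 19.9 TPM. Rnf2 stood at 28.3 and 47.6 TPM in the libraries labelled PRC1ctrl and at 56.7 and 67.5 TPM in those labelled PRC1cKO. Thus the Ring1 level matched the genotype in all 4 libraries, whereas Rnf2 was not lower under the PRC1cKO label (log2 fold change 0.74, SE 0.37, limma adjusted p = 0.457). A value per gene does not separate the deleted exons from the rest of the transcript. PRC1ctrl and PRC1cKO therefore name the labels of the libraries throughout.

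The cell type was examined through its markers. Zbtb16 and Gfra1, which mark undifferentiated spermatogonia, were present in all 4 libraries, Zbtb16 at 4.93 and 12.5 TPM (PRC1ctrl) and 5.08 and 14.2 TPM (PRC1cKO). Their whole list summed to 1455 and 2165 TPM in PRC1ctrl and to 984 and 1174 TPM in PRC1cKO. Wild-type Aundiff held 2274 and 2644 TPM of it and wild-type Adiff 726 and 897 TPM. Of its 29 tested members, 10 lay lower in PRC1cKO without overlap of the groups (34.5%, against 17.3% of all genes tested) and 1 higher. Genes of meiotic entry and prophase summed to 3731 and 2891 TPM in PRC1ctrl and to 4941 and 4191 TPM in PRC1cKO, which was above the 1998 to 2233 TPM of wild-type Adiff. Genes of elongating spermatids summed to 1535 and 3372 TPM in PRC1ctrl and to 95.5 and 88.4 TPM in PRC1cKO. In wild-type libraries the latter sum was 1237 and 1282 TPM (Aundiff) and 849 and 1063 TPM (Adiff). Meiotic RNA thus lay above the wild-type range under both labels, while spermatid RNA lay above it in PRC1ctrl and below it in PRC1cKO. The library kit differed from that of the wild-type cells, so kit and genotype cannot be told apart in this comparison across experiments.

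**Figure D1:**
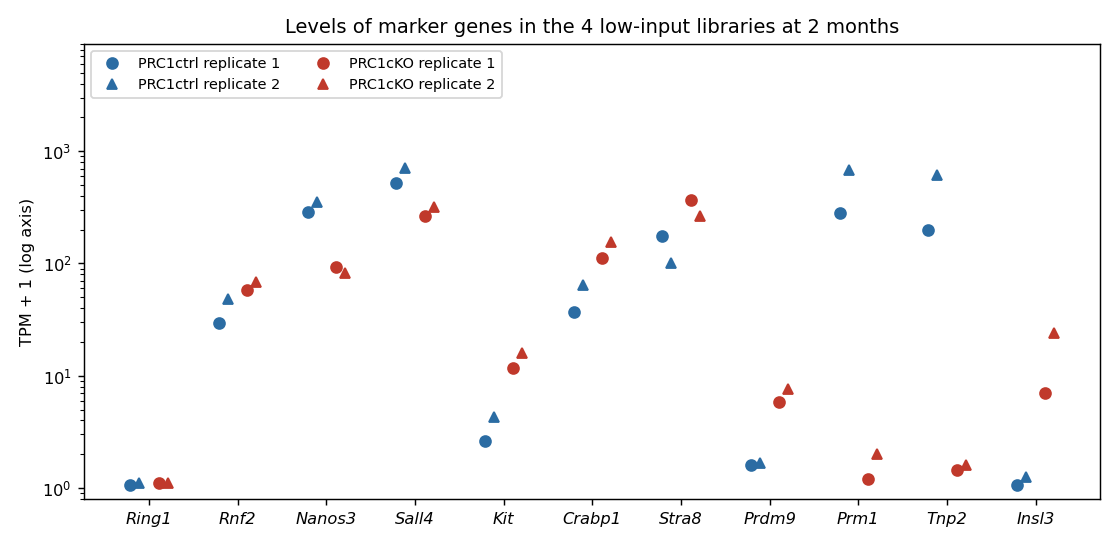
Levels of 11 genes in the 4 libraries, with TPM + 1 on a log axis, PRC1ctrl in blue, PRC1cKO in red, replicate 1 as circles and replicate 2 as triangles. Nanos3, Sall4, Prm1 and Tnp2 lie lower in both PRC1cKO libraries, and Kit, Crabp1, Stra8, Prdm9 and Insl3 lie higher in both.

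More genes were called lower than higher, although more genes lay higher than lower without overlap. A gene was called when limma's adjusted p, by Benjamini-Hochberg over all 13953 genes, was under 0.05 and its log2 fold change beyond 1 in size. By this rule 270 genes were lower in the PRC1cKO libraries (1.94%) and 31 were higher (0.222%), or 2.16% in both directions. At an unadjusted p under 0.05 in limma, 1150 genes were lower and 835 higher. Counts of list members below, called or at an unadjusted p under 0.05, are to be read against these numbers. With so few genes called, 0 calls in a short list say little about its members. Of the genes called lower, 239 were below 1 TPM in both PRC1cKO libraries and so passed the filter through PRC1ctrl alone. The number of calls depended on each library. In limma without PRC1ctrl replicate 1, 0 genes were called and 1409 had an unadjusted p under 0.05, and without PRC1ctrl replicate 2 these were 0 and 1988. Without PRC1cKO replicate 1, 2 genes were called lower and 0 higher, with 1663 at an unadjusted p under 0.05. Without PRC1cKO replicate 2, 40 were called lower and 10 higher. The lone library of a label was then assumed to vary like the other label. With 2 libraries against 2, an exact permutation test of a single gene cannot go below p = 0.333.

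Same-numbered replicates were also compared, although nothing states that they were prepared together. PRC1cKO replicate 1 minus PRC1ctrl replicate 1 and PRC1cKO replicate 2 minus PRC1ctrl replicate 2 were both above 1 for 649 genes (4.65%) and both below -1 for 963 genes (6.9%). Both groups were separate, with no overlap of their values, for 3836 genes on the higher side (27.5%) and 2419 on the lower side (17.3%). Counts of list members without overlap below are to be read against these shares.

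Genes of haploid germ cells were prominent among the largest decreases. Prm1, which encodes a protamine that replaces histones in sperm, stood at 280 and 684 TPM in PRC1ctrl and at 0.21 and 0.99 TPM in PRC1cKO. Tnp2, a transition protein that precedes the protamines, stood at 196 and 608 TPM against 0.46 and 0.60 TPM. Both genes were high in each control library and near 0 in each mutant library. Prm1 fell by 8.14 (SE 0.55, limma adjusted p = 0.0172) and Tnp2 by 7.82 (SE 0.59, adjusted p = 0.0172), and the same-numbered differences of Prm1 were -7.86 and -8.43.

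Hmgb4, a high mobility group protein of spermatids, also belongs to this stage. It stood at 289 and 353 TPM in PRC1ctrl and at 0.45 and 0.73 TPM in PRC1cKO and fell by 7.66 (SE 0.35, limma adjusted p = 0.00967). Hmgb4 and Ms4a5, a membrane protein gene at 308 and 420 TPM against 0.71 and 0.50 TPM, were the 2 genes still called without PRC1cKO replicate 1. The other genes among the 10 protein-coding ones with the largest decrease were Smcp, Lelp1, Prm2, Cabs1, Fhl5 and Prm3. Smcp encodes a protein of the sperm mitochondrial capsule, Cabs1 a calcium-binding protein of the sperm tail and Fhl5 a partner of the transcription factor CREM. Their log2 fold changes ran from -7.34 for Smcp to -6.40 for Prm3, and each lay below 1 TPM in both PRC1cKO libraries.

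By stage, 14 of the 23 tested members of the elongating spermatid list were called lower (25 listed), against 1.94% of all genes tested. Of the 23, 22 lay lower without overlap, against 17.3% of all genes tested. Members below 1 TPM in both PRC1cKO libraries, such as Prm1, Tnp2 and Hmgb4, passed the filter through PRC1ctrl alone. For them the filter favoured this direction. The median log2 fold change of the 23 was -4.28. Tnp1, the other transition protein gene, kept the most RNA among the members called, with 176 and 176 TPM in PRC1ctrl and 56.4 and 47.4 TPM in PRC1cKO (log2 fold change -1.75, limma adjusted p = 0.0425). Ropn1l, a protein of the sperm fibrous sheath, was the single tested member whose groups overlapped, at 14.8 and 40.9 TPM against 17.4 and 18.7 TPM.

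Of the round spermatid list, 2 of 13 tested members were called lower, 10 of 13 lay lower without overlap and the median was -1.51. Over all genes tested these shares were 1.94% called lower and 17.3% lower without overlap. Tssk2 and Spata46, the 2 called, passed the filter through PRC1ctrl alone. Tssk2, a testis-specific serine kinase, stood at 11.8 and 46.3 TPM in PRC1ctrl and at 0 and 0.08 TPM in PRC1cKO (limma adjusted p = 0.0446). Spata46, a protein of the sperm nuclear envelope, stood at 9.41 and 23.7 TPM and was listed at 0 in both PRC1cKO libraries (adjusted p = 0.0398). Of the pachytene list, 2 of 16 were called, both enzymes of sperm glycolysis encoded by testis-specific genes. Ldhc stood at 26.7 and 105 TPM against 1.67 and 0.90 TPM and Pgk2 at 30.1 and 129 TPM against 0.12 and 1.06 TPM. Of the axoneme list, 1 of 16 was called, Meig1, which is needed to build the sperm tail. Meig1 stood at 127 and 171 TPM against 12.4 and 9.33 TPM and fell by 3.65 (SE 0.34, limma adjusted p = 0.0218).

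The 2 control libraries differed in these genes, for 237 of the 270 genes called lower were higher in PRC1ctrl replicate 2 than in replicate 1, with a median ratio of 1.53. Over all genes tested, 9821 of 13953 were higher in that library, with a median ratio of 1.35. In bulk libraries, fewer spermatids or spermatid fragments in the sort and less RNA per cell cannot be told apart. Of 12 genes of all germ cells, 0 were called in limma and 1 had an unadjusted p under 0.05, with summed levels of 2506 and 2715 TPM in PRC1ctrl and 3040 and 2884 TPM in PRC1cKO. On the X chromosome lay 31 of the 270 genes called lower (11.5%), compared with 4.69% of the genes tested. Genes called lower were protein-coding in 184 cases, 25 were annotated as antisense RNAs, which these unstranded libraries cannot separate from the gene on the other strand, and 11 shared most of their exon length with another gene.

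**Figure D2:**
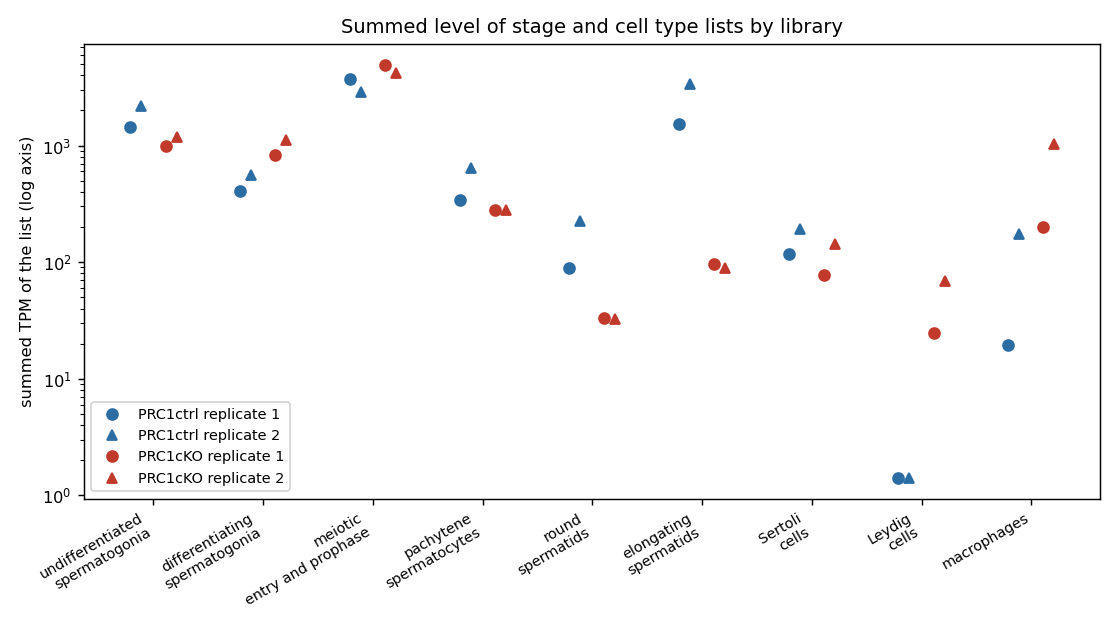
Summed TPM of stage and cell type lists in each library on a log axis, PRC1ctrl in blue and PRC1cKO in red, replicate 1 as circles and replicate 2 as triangles. The elongating spermatid sum is 1535 and 3372 in PRC1ctrl and 95.5 and 88.4 in PRC1cKO, while the Leydig sum is near 1 in PRC1ctrl and 24.9 and 69.0 in PRC1cKO.

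A sequence feature was found in part of the promoters of genes called lower. A cAMP response element-like motif, TGACNTCA on either strand, is the kind of site bound by CREM and its relatives, and CREM drives many haploid genes. It lay within the 250 bases before a RefSeq start (GRCm38.p6) in 58 of the 192 genes called lower that had a promoter in the table (30.2%), so most of them lacked it. Most genes called lower had entered the test through PRC1ctrl alone, as given above. The share was 8.61% of tested genes (862 of 10012), 8.55% of all genes with a promoter, 7.49% of all promoters and 1 of 11 genes called higher. An E-box, CACGTG, was found in 1.04% of the genes called lower, 9.95% of the genes tested and 6.86% of all genes with a promoter. For an E2F-like motif, TCCCGC on either strand, these shares were 5.21%, 31.8% and 18.8%. No motif contains another, and a match is a description of the sequence and not of binding.

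Sequences before the start of 5 genes called lower are shown because each holds the CRE-like motif, and Nanos3, called lower without it in this window, is shown beside them. Each is read 5′ to 3′ on the strand of the gene, bases that gencode vM21 places in an exon are left out, and capitals mark the motif. Prm3 (minus strand, chr16:10790915-10791034) has it 60 bases before the start, Tnp1 (minus strand, chr1:73015910-73016019) at 94, Hmgb4 (minus strand, chr4:128260958-128261015) at 74, Lelp1 (minus strand, chr3:92142755-92142874) at 82 and 45, and Tssk2 (plus strand, chr16:17898563-17898636) at 58. The stretch of Nanos3 (minus strand, chr8:84176553-84176672) has none.
Prm3: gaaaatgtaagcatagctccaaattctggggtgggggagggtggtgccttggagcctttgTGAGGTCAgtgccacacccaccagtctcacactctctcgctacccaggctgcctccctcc
Tnp1: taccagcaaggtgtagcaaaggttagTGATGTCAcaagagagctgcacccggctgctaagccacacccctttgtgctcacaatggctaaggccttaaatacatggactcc
Hmgb4: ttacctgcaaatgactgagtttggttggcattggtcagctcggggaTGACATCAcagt
Lelp1: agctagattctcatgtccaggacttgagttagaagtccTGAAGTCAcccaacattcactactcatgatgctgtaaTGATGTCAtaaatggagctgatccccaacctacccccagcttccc
Tssk2: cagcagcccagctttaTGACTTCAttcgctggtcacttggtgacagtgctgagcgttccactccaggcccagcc
Nanos3: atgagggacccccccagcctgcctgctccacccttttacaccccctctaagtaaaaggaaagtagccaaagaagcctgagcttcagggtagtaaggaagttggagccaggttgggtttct

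**Figure D3:**
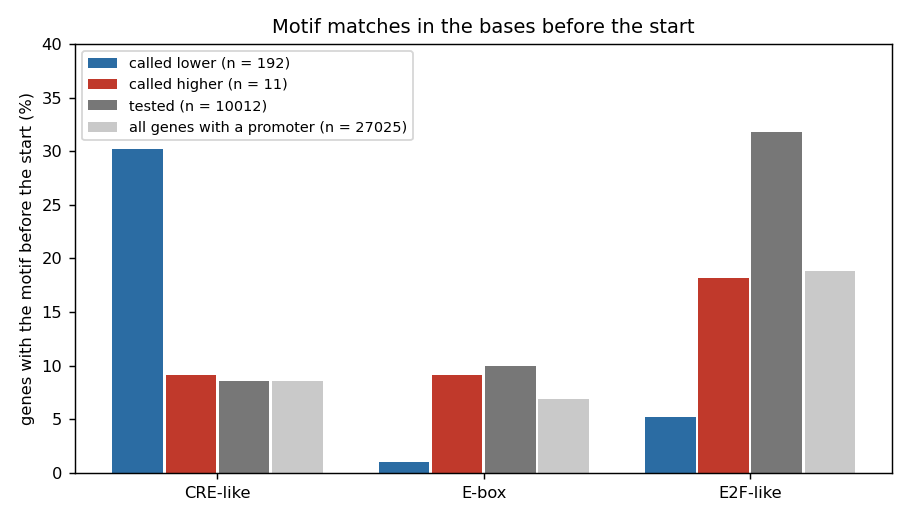
Percentage of genes with a motif match in the 250 bases before a RefSeq start, for genes called lower (blue), called higher (red), tested (dark grey) and all genes with a promoter (light grey), with the number of genes in the key. The CRE-like share is 30.2% for genes called lower and 8.61% for genes tested, and the E-box and E2F-like shares lie below those of the genes tested.

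Among genes of the stem cell and progenitor state, Nanos3 fell. Nanos3, an RNA-binding protein of undifferentiated spermatogonia, stood at 286 and 349 TPM in PRC1ctrl and at 92.4 and 80.6 TPM in PRC1cKO. Both mutant libraries lay below both controls, and Nanos3 fell by 1.86 (SE 0.25, limma adjusted p = 0.0383), with same-numbered differences of -1.62 and -2.10. It was the single member called of 29 tested (33 listed), and the list's median was -0.11. Without overlap, 10 of 29 lay lower (34.5%, against 17.3% of all genes tested) and 1 higher (3.45%, against 27.5%).

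Other members gave values that did not pass the test. Sall4, a transcription factor of undifferentiated cells, stood at 517 and 704 TPM in PRC1ctrl and at 266 and 314 TPM in PRC1cKO (log2 fold change -1.06, limma adjusted p = 0.118). Lin28a, an RNA-binding protein of progenitors, at 79.6 and 83.1 TPM against 34.2 and 53.2 TPM, had a log2 fold change of -0.91 (adjusted p = 0.299) and Upp1, uridine phosphorylase, one of -1.598 (adjusted p = 0.188). Sall1, at 1.00 to 1.41 TPM against 0.38 and 0.49 TPM, was close to the filter and passed it through PRC1ctrl alone. Receptors and regulators of the stem cell fraction overlapped between the groups, among them Gfra1 (log2 fold change 0.45), Ret (0.22), Etv5 (0.40) and Zbtb16 (0.10).

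Genes of differentiating spermatogonia lay higher in the PRC1cKO libraries. None of the 12 tested was called, against 0.222% of all genes called higher, a share at which 12 genes seldom hold a call. In limma, 5 had an unadjusted p under 0.05, all higher, against 835 of 13953 higher over all genes tested. Kit, the receptor against which the cells were sorted, stood at 1.64 and 3.30 TPM in PRC1ctrl and at 10.7 and 14.9 TPM in PRC1cKO. Wild-type Aundiff held 6.38 and 6.96 TPM of Kit and wild-type Adiff 245 to 247 TPM, so both labels were far below Adiff. The wild-type libraries were made with another kit. The log2 fold change of Kit was 2.02 (SE 0.46, limma adjusted p = 0.113), with same-numbered differences of 2.15 and 1.89. Esx1, an X-linked homeobox gene, had a log2 fold change of 1.95 (adjusted p = 0.168), Rhox13, another, of 1.80 (adjusted p = 0.126), and Crabp1, which binds retinoic acid in the cytoplasm, of 1.43 (adjusted p = 0.153). Of the 12, 8 lay higher without overlap (66.7%, against 27.5% of all genes tested) and 0 lower, and the median was 1.05. Dnmt3b, a DNA methyltransferase, and Dmrtb1, which controls the switch to meiosis, overlapped between the groups.

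Retinoic acid genes showed a like pattern, with 0 of 13 tested members called in limma (0.222% of all genes were called higher). An unadjusted p under 0.05 was found for 3, all higher, and the median was 0.78. Of the 13, 8 lay higher without overlap (61.5%, against 27.5% of all genes tested). Aldh1a1, which makes retinoic acid, stood at 3.94 and 5.63 TPM in PRC1ctrl and at 25 and 27.9 TPM in PRC1cKO (log2 fold change 2.26, SE 0.39, limma adjusted p = 0.0599). Rbp4, the plasma retinol carrier, had a log2 fold change of 0.99 (adjusted p = 0.291). Somatic markers moved in the same direction as Aldh1a1, as given below, and their part in it was not tested.

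In the list of meiotic entry and prophase, 0 of 35 tested members were called, with 10 higher and 0 lower at an unadjusted p under 0.05. Over all genes tested, 0.222% were called higher, and 835 of 13953 were higher at an unadjusted p under 0.05 in limma. Prdm9, which marks recombination sites with histone methylation, stood at 0.62 and 0.67 TPM in PRC1ctrl and at 4.87 and 6.67 TPM in PRC1cKO. Prdm9 passed the filter through PRC1cKO alone, so its direction and the lack of overlap were set by the filter. Its log2 fold change of 2.03 (SE 0.40) had a limma adjusted p of 0.0802. Stra8, the retinoic acid-induced gene of meiotic entry, stood at 174 and 101 TPM against 363 and 262 TPM (log2 fold change 1.22, adjusted p = 0.187). Meioc, which stabilizes the meiotic programme, had a log2 fold change of 1.46 (adjusted p = 0.223), and M1ap, needed for recombination, of 2.05 (adjusted p = 0.392).

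The meiotic members did not move as 1 block. Without overlap, 24 of the 35 lay higher (68.6%, against 27.5% of all genes tested) and 3 lower (8.57%, against 17.3%). Their median was 0.60 over the 35. The 3 lower were Spo11, the enzyme that cuts DNA to start recombination, at 2.57 and 4.22 TPM against 2.50 and 0.98 TPM, Rnf212, a crossover factor, and Ankrd31. Tex11, at 203 and 270 TPM against 448 and 407 TPM, and Tex15, at 92.6 and 110 TPM against 190 and 176 TPM, both act in meiotic germ cells and lay higher without overlap. Their limma adjusted p values were 0.173 and 0.184.

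Genes that separated wild-type Adiff from Aundiff were then followed, in libraries that share no sample with this comparison. Of 15470 genes tested there, 1724 were called higher in Adiff (11.1%) and 1430 lower (9.24%). Of the 1724 genes called higher, 1168 could be tested here, of which 7 were called higher and 0 lower. Without overlap, 732 lay higher (62.7%) and 31 lower (2.65%), and the median log2 fold change was 0.69. The summed level of the 1724 was 37551 and 40663 TPM in PRC1ctrl and 65930 and 64102 TPM in PRC1cKO. Of the 1430 genes called lower, 1108 could be tested, of which 1 was called higher and 17 lower. Without overlap, 106 lay higher (9.57%) and 386 lower (34.8%), and the median was -0.19. Over all genes tested, 0.222% were called higher and 1.94% lower, and 27.5% lay higher and 17.3% lower without overlap. The 17 of 1108 called lower were thus a smaller share than over all genes. Read against the median of 0.22 over all genes, the first set lay above it and the second below it.

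Among the 31 genes called higher, 14 were protein-coding, 7 were annotated as miRNA genes, 8 as pseudogenes and 1 as a snoRNA, and 5 shared most of their exon length with another gene. For 20 of the 31, both PRC1ctrl libraries were below 1 TPM. These 20 passed the filter through PRC1cKO alone, which set their direction. The miRNA annotations carry only predicted gene names and stand for reads in a poly(A)-primed library, and they are counted and not named.

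The 10 protein-coding genes with the largest increase were Akr1cl, Sorl1, Gm4737, Gm6356, Gal, Hsd3b1, Sult1e1, Fabp3, Ly6k and Mmp12. Akr1cl, an aldo-keto reductase gene, stood at 0.41 and 0.78 TPM in PRC1ctrl and at 18.5 and 14 TPM in PRC1cKO (log2 fold change 3.43, SE 0.42, limma adjusted p = 0.0332). Sorl1, a sorting receptor, stood at 0.69 and 1.83 TPM against 26.3 and 14.6 TPM. Gal, the neuropeptide galanin, stood at 1.57 and 1.77 TPM against 20.2 and 17.3 TPM (log2 fold change 2.88, adjusted p = 0.0401). Gal and Ly6k, a GPI-anchored protein of germ cells at 8.27 and 9.57 TPM against 50.6 and 58.6 TPM, were also among the genes higher in wild-type Adiff than in Aundiff (log2 fold changes 4.11 and 2.29). Exons of Ly6k lay opposite another gene over 47.6% of their length.

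Several of these genes are best known from somatic cells of the testis. Hsd3b1, which makes steroid hormones in Leydig cells, stood at 0 and 0.37 TPM in PRC1ctrl and at 8.74 and 6.63 TPM in PRC1cKO. Sult1e1, an estrogen sulfotransferase, stood at 0.42 and 0.94 TPM against 12.6 and 8.83 TPM, Fabp3, a fatty acid-binding protein, at 4.11 and 5.47 TPM against 40.0 and 31.4 TPM, and Mmp12, macrophage elastase, at 0.11 and 0.10 TPM against 4.19 and 5.48 TPM. All 4 genes were higher in both mutant libraries, which the filter set in advance for Hsd3b1, Sult1e1 and Mmp12. Fabp3 was also higher in wild-type Adiff than in Aundiff (log2 fold change 1.40).

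Leydig markers as a list moved with the label. All 7 tested members were higher without overlap, against 27.5% of all genes tested, and 1 was called (Hsd3b1). The summed level was 1.42 and 1.41 TPM in PRC1ctrl against 24.9 and 69.0 TPM in PRC1cKO. With control sums this low, members passed the filter largely through PRC1cKO. The direction of the 7 was therefore largely set by the filter. Insl3, the most abundant, stood at 0.06 and 0.26 TPM against 6.08 and 23.0 TPM (log2 fold change 3.496, limma adjusted p = 0.0755), and 64.8% of its exon length is shared with another gene. Insl3, Cyp17a1, Cyp11a1 and Hsd3b6, which define the cell type, were all below 1 TPM in the control libraries. The same sum was 24.5 and 47.3 TPM in wild-type Aundiff and 440 and 88.5 TPM in PRC1ctrl after Win18446, so the 2-month PRC1ctrl libraries held the lowest Leydig levels of the series. Of the macrophage list, 6 of 8 tested members were higher without overlap (75%, against 27.5% of all genes tested) and 1 lower. In limma, 0 were called and 3 had an unadjusted p under 0.05. The summed level of that list was 19.4 and 173 TPM in PRC1ctrl and 202 and 1027 TPM in PRC1cKO, in which replicate 2 of each label was the higher one. H2-Ab1, which presents antigen, stood at 1.23 and 21.2 TPM against 26.8 and 201 TPM (limma adjusted p = 0.349), and Lyz2, the lysozyme of macrophages, at 0.02 and 1.87 TPM against 4.71 and 15.0 TPM (adjusted p = 0.206).

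Sertoli markers did not share this pattern, with 0 of 7 called in limma, 1 at an unadjusted p under 0.05, and 1 higher and 1 lower without overlap. Clu, clusterin, stood at 2.24 and 9.52 TPM against 19.5 and 29.0 TPM (limma adjusted p = 0.226), and Cst9, a cystatin, at 94.0 and 130 TPM against 30.8 and 77.9 TPM (adjusted p = 0.380). Of peritubular and endothelial markers, 0 of 4 tested were called or had an unadjusted p under 0.05, and of erythroid markers none reached the filter. The part of Leydig cells and macrophages in the genes called higher was not tested.

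Polycomb genes themselves gave no call, with 0 of 19 tested PRC1 subunits other than the deleted ones and 0 of 9 PRC2 subunits. In limma, 2 and 1 of them had an unadjusted p under 0.05. With 2.16% of all genes tested called, lists this short may hold no call. Of the 19, 8 lay higher without overlap (42.1%, against 27.5% of all genes tested) and 1 lower (5.26%, against 17.3%). Of the 9, 2 lay higher (22.2%) and 1 lower (11.1%). Pcgf6, which defines a variant PRC1, stood at 114 and 109 TPM in PRC1ctrl and at 79.9 and 62.1 TPM in PRC1cKO (log2 fold change -0.66, limma adjusted p = 0.369). Pcgf2, of canonical PRC1, stood at 3.85 and 12.4 TPM against 19.07 and 24.45 TPM (log2 fold change 1.49, adjusted p = 0.339). Yaf2, a partner of RNF2, stood at 13.7 and 16.5 TPM against 29.5 and 35.3 TPM, with same-numbered differences of 1.05 and 1.05 (adjusted p = 0.256).

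Classic Polycomb targets were mostly silent under both labels. Of 39 Hox genes, 20 were below 1 TPM in all 4 libraries, 15 were tested and 0 called, 4 with an unadjusted p under 0.05, all higher. Hoxa9 stood at 0.63 and 1.67 TPM in PRC1ctrl and at 3.24 and 6.11 TPM in PRC1cKO, Hoxa7 at 5.70 and 4.85 TPM against 10.3 and 18.4 TPM, and Hoxa13 at 0.53 and 0.33 TPM against 1.70 and 1.41 TPM. These genes of the HoxA cluster lay higher without overlap, with limma adjusted p values of 0.286, 0.299 and 0.313. Hoxa13 passed the filter through PRC1cKO alone, so its direction was set by the filter. Of the 15 tested, 5 lay higher without overlap (33.3%, against 27.5% of all genes tested) and 2 lower, Hoxc8 and Hoxb4 (13.3%, against 17.3%). These shares were close to those over all genes. Of 78 other developmental transcription factors, 54 were below 1 TPM in all 4 libraries, and in limma 0 of the 17 tested were called and 1 had an unadjusted p under 0.05. Pax6, an eye and brain regulator, stood at 0.01 and 0.25 TPM against 1.56 and 1.21 TPM (adjusted p = 0.170). It too passed the filter through PRC1cKO alone.

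Cell cycle drivers lay higher in the PRC1cKO libraries without reaching the threshold. Of 32 members, 0 were called in limma, against 0.222% of all genes called higher and 1.94% lower. At an unadjusted p under 0.05, 8 were higher and 1 lower, and the median was 0.75. Without overlap, 19 were higher (59.4%, against 27.5% of all genes tested) and 2 lower (6.25%, against 17.3%). Ccne2, a cyclin of S phase entry, stood at 52.2 and 39.5 TPM in PRC1ctrl and at 149 and 97.1 TPM in PRC1cKO (log2 fold change 1.38, limma adjusted p = 0.130). Mki67, a proliferation marker, stood at 5.59 and 3.43 TPM against 15.5 and 11.3 TPM. Ccnd3, a D-type cyclin, went the other way, from 157 and 117 TPM to 52.1 and 44.5 TPM (log2 fold change -1.48, adjusted p = 0.0816).

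Of 10 cell cycle inhibitors, 0 were called, 0 were higher and 2 lower at an unadjusted p under 0.05. The list's median was 0.29, against 0.22 over all genes tested. Without overlap, 2 lay higher (20%, against 27.5% of all genes tested) and 3 lower (30%, against 17.3%). Rbl2, the pocket protein p130, stood at 9.37 and 25.7 TPM in PRC1ctrl and at 0.49 and 0.76 TPM in PRC1cKO (log2 fold change -3.36, limma adjusted p = 0.0587). Rbl2 passed the filter through PRC1ctrl alone, so its direction was set by the filter. Cdkn1b, a brake on cyclin-dependent kinases, stood at 8.45 and 7.01 TPM against 1.44 and 1.67 TPM (log2 fold change -1.77, adjusted p = 0.109). Cdkn2a, a Polycomb target in many cells, stood at 1.67 and 2.76 TPM against 2.97 and 8.89 TPM (adjusted p = 0.523). Of 9 genes of cell death tested, 0 were called and 1 had an unadjusted p under 0.05. That was Casp8, an initiator caspase, at 2.71 and 1.46 TPM against 8.81 and 8.82 TPM, (limma adjusted p = 0.139).

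The histone list held 2 calls among 34 tested, both higher, of which H2ac14 is annotated as an unprocessed pseudogene. Hist1h2ap stood at 831 and 634 TPM in PRC1ctrl and at 2264 and 1945 TPM in PRC1cKO (log2 fold change 1.53, SE 0.22, limma adjusted p = 0.0416). H2ac14 was listed at 0 in both PRC1ctrl libraries and stood at 61.7 and 14.8 TPM in PRC1cKO. Another gene lies opposite 33.5% of the exon length of H2ac14 and 28.6% of that of Hist1h2ap, which these libraries cannot separate by strand. H2A genes of this cluster are nearly identical, so reads may be split among them and the values of single copies are uncertain. Over the list, 8 members lay higher without overlap (23.5%, against 27.5% of all genes tested) and 11 lower (32.4%, against 17.3%). The median was 0.07, and -0.15 with median-of-ratios scaling. Of 15 mitochondrial genes tested, 0 were called in limma, with 1 higher and 2 lower at an unadjusted p under 0.05, and their sum was 166520 and 147721 TPM in PRC1ctrl and 143655 and 125220 TPM in PRC1cKO. Of 4 immediate early genes tested, which respond to handling of cells, 0 were called or had an unadjusted p under 0.05.

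The same labels were compared in the mice given Win18446, which share no library with these. There 210 genes were higher (1.27%) and 1807 lower (10.9%) of 16521 tested. Of the 270 genes called lower at 2 months, 102 could be tested there, 58 were called lower and 0 higher, and of the 31 called higher, 17 could be tested, 3 were called higher and 1 lower. In PRC1ctrl after Win18446, 129 of the 270 genes were below 1 TPM in both libraries. Prm1, for example, stood at 32.1 and 36.0 TPM in PRC1ctrl and at 0 and 0.19 TPM in PRC1cKO after treatment. The elongating spermatid sum was 289 and 262 TPM in PRC1ctrl and 105 and 115 TPM in PRC1cKO there.

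The difference between labels was compared across the 2 experiments by an interaction term, which was called above 0 for 914 of 18354 genes (4.98%) and below 0 for 506 (2.76%). Nanos3 and Prdm9 differed between the experiments. After Win18446, Nanos3 stood at 137 and 157 TPM in PRC1ctrl and at 120 and 133 TPM in PRC1cKO, for which limma gave -0.21 on the log2 scale (adjusted p = 0.226), and Prdm9 at 1.51 and 3.31 TPM against 2.07 and 1.73 TPM. The difference of the 2 differences was -1.65 for Nanos3 (interaction, adjusted p = 0.0176) and 2.21 for Prdm9 (adjusted p = 0.0294). For Kit it was 0.60 (adjusted p = 0.447), with 6.48 and 8.15 TPM against 20.4 and 22.0 TPM after treatment, where Kit was called higher (log2 fold change 1.42, adjusted p = 0.00263). Treatment, library kit and pool size change together between the experiments and cannot be told apart.

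**Figure D4:**
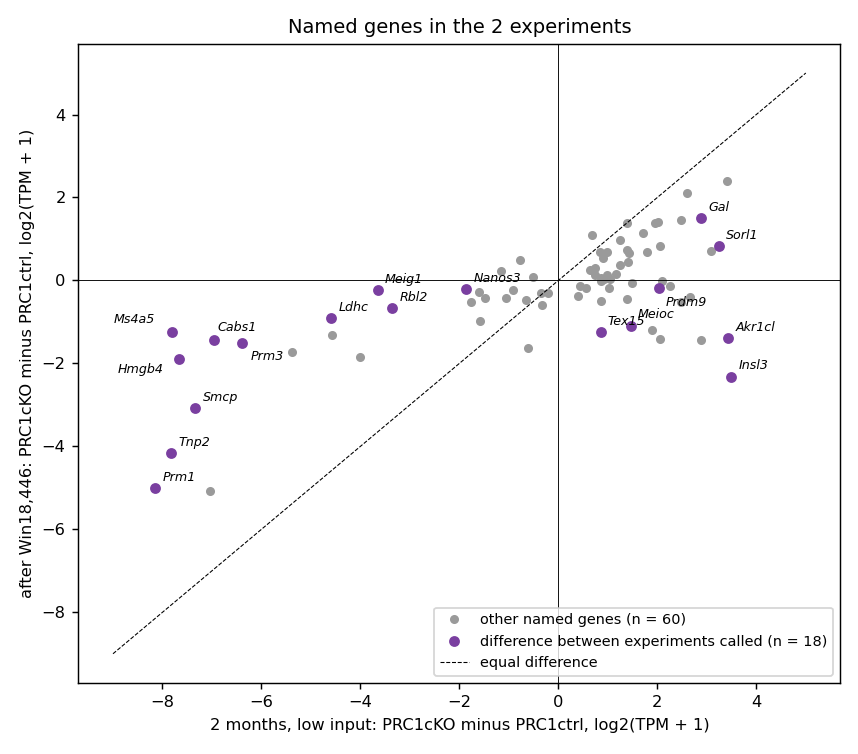
Named genes by their difference at 2 months (horizontal) and after Win18446 (vertical), each as PRC1cKO minus PRC1ctrl on log2(TPM + 1), with purple for genes whose difference differed between the experiments (interaction, adjusted p under 0.05) and a dashed line where both are equal. Prm1 lies at -8.14 and -5.003, Nanos3 at -1.86 and -0.21, and Akr1cl at 3.43 and -1.39.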

How the data were processed

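RNA-seq of sorted mouse spermatogonia was analysed in 4 libraries (PRC1ctrl and PRC1cKO Aundiff at 2 months), with 8 others for comparison. The authors deposited 1 table of TPM for 55385 genes. Per the labels, the tools named were Trim Galore 0.6.6, HISAT2 2.2.1, SAMtools 1.9, HTSeq 1.6.0, DESeq2 1.28.1 and RSEM 1.3.3, with build GRCm38 and 100-bp paired-end reads. TPM holds no read counts, so depth and counting error are unknown and precision rests on 2 libraries per label. Replicates were stated to be independent biological samples of pooled cells. The antisense calls share the limits of unstranded libraries.

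TPM was transformed to log2(TPM + 1). A gene entered the test if 2 or more of the 4 libraries held it at 1 TPM or above. Limma 3.58.1 in R 4.3.3 (trended, robust, two-sided) gave the p-values, which were adjusted by Benjamini-Hochberg. A call needed an adjusted p under 0.05 with a log2 fold change beyond 1 in size. A model over 8 libraries gave the interaction of label with treatment. Tables were made with Python 3.11.15 and pandas 2.3.3, and figures with matplotlib 3.10.9. The fit was tested on simulated data with known changes.

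Gene names came from the table's identifiers, of which 54814 had the same coordinates in gencode vM21. Promoters are RefSeq's, 250 bases before each start. Genes named are the deleted genes and given markers, genes the study's text names for this comparison, the 10 protein-coding genes with the largest change in each direction among calls without overlap, and from each list up to 4 called members or, with fewer than 2, the 3 with the smallest p. Others, such as Stra8, Tnp1, Spo11, Ropn1l, Zbtb16 and Hoxc8, were chosen after their values were seen. The members and the gene lists were chosen with earlier results of these data known. Alternatives were another pseudocount, filters, scalings, a GC trend, a replicate block, a fit over 12 libraries, plain moderation and leaving out each library.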

Additional observations from a re-analysis of the deposited data

Results flagged for a closer look

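For 24 named genes the difference between PRC1cKO and PRC1ctrl at 2 months differed from that after Win18446 by the interaction term (limma, adjusted p under 0.05 and a difference above 1). Many named genes were chosen for a large 2-month change, and the interaction uses the same 2-month libraries. The choice therefore favoured a larger difference at 2 months. The values are the 2-month difference minus the treated one on log2(TPM + 1), over 8 libraries, and treatment, library kit and pool size cannot be told apart in them. Genes of haploid cells had negative values, with -6.56 for Ms4a5, -6.43 for Lelp1, -5.77 for Hmgb4, -5.54 for Cabs1, -5.33 for Fhl5, -4.88 for Prm3, -4.25 for Smcp, -3.66 for Tnp2 and -3.14 for Prm1. All 9 were lower in both treated than in both untreated PRC1ctrl libraries, as with Ms4a5 at 1.24 and 1.54 TPM after treatment against 308 and 420 TPM. On log2(TPM + 1), a gene this low has little room to fall. Ms4a5 was at 0 TPM in both treated PRC1cKO libraries, so its treated difference (-1.25) was limited by that floor. Ldhc, a sperm glycolysis gene, had -3.68 and Meig1, of the sperm tail, -3.43. Rbl2 had -2.69 (adjusted p = 0.0485) and Nanos3 -1.65 (adjusted p = 0.0176).

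Positive values were found for Gal (1.39), Mmp12 (1.94), Sorl1 (2.40), Gm6356 (2.93), Sult1e1 (3.93) and H2ac14 (4.97). H2ac14 was listed at 0 in both untreated PRC1ctrl libraries and in all 4 treated libraries. In the meiotic list, Prdm9 had 2.21, Tex15 2.09 and Meioc 2.55. Tex15 was lower in PRC1cKO after treatment (log2 fold change -1.24, limma adjusted p = 0.00239) and Meioc likewise (-1.09, adjusted p = 0.0125), while at 2 months both had values above 0 that did not pass the test. Akr1cl had 4.82 and Insl3 5.82, and both were uneven between replicates of treated PRC1ctrl, with Insl3 at 292 and 64.5 TPM and Akr1cl at 26.5 and 4.72 TPM.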

How the results depend on the processing

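The counts of called genes depended on the processing, and the cause was not tested except where fewer samples or genes were used. Genes called higher, 31 in the report, numbered 78 with median-of-ratios scaling, 103 with quantile normalization, 115 with a GC trend removed, 662 with all 12 libraries in the fit, 6 with a mean TPM of at least 5 and 0 with no filter on low values (limma, 2683 of 32181 genes at an unadjusted p under 0.05). Genes called lower, 270 in the report, numbered 772, 599, 861, 1049, 90 and 0 under the same settings and 406 with a pseudocount of 0.1. Leaving out 1 library gave 0 to 10 genes higher and 0 to 40 lower. Median-of-ratios scaling moved the median of all genes from 0.22 to -0.01, and all 270 genes called lower were called again there. The medians of the PRC2 and pan germ cell lists turned to -0.03 and -0.11 and that of the histone list to -0.15, while those of the spermatid, differentiating, meiotic and cell cycle driver lists kept their sign. With the replicate block, limma called 1074 genes higher and 1098 lower, 30 and 270 of them shared with the report, and 552 and 1174 when a GC trend was removed as well. The numbers are not stated to pair the samples. Deviations of same-numbered libraries correlated with r = 0.381 across genes. The interaction of label and treatment, called for 1420 genes in the report, gave 469 with a pseudocount of 0.1 and 2938 with the replicate block. Signs turned for 3 genes, none of them called. The Dusp1 log2 fold change ranged from -0.394 (without PRC1cKO replicate 2) to 2.46 when 1 library was left out, the Vwf log2 fold change from -0.445 to 0.0395 (without PRC1ctrl replicate 1), and the mt-Atp8 log2 fold change was 0.0203 under quantile normalization. Over the named genes, leaving out 1 library kept 247 values on their side of the threshold and moved 99 out of the calls. Other settings kept 756, moved 49 out and moved 122 in.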

Other observations

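A few genes called lower are not known from spermatids. Tcf7l2, a transcription factor of Wnt signalling, stood at 156 and 178 TPM in PRC1ctrl and at 45.6 and 46.0 TPM in PRC1cKO (log2 fold change -1.84, limma adjusted p = 0.0411), and wild-type Adiff lay below Aundiff for it (log2 fold change -2.04). Gas5, a noncoding host gene of small nucleolar RNAs, stood at 79.2 and 66.5 TPM against 8.82 and 13.4 TPM (adjusted p = 0.0411), and 17.8% of its exon length is shared with another gene. Both were also called lower after Win18446, with adjusted p values of 0.0315 for Tcf7l2 and 0.0136 for Gas5. They were chosen after their values were seen.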
